A study of Mus musculus with 6 samples.

Results

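The genes described here encode the AMPA and kainate receptor subunits, and were chosen by symbol: 4 AMPA subunit genes (Gria1, Gria2, Gria3 and Gria4) and 5 kainate subunit genes (Grik1, Grik2, Grik3, Grik4 and Grik5). All 9 were listed in each of 6 RNA-seq libraries, among 24421 genes in all. The libraries came from cells sorted by their TurboRFP fluorescence from the olfactory bulbs of adult male mice, 3 control and 3 Sox9 KO, 4 weeks after the bulbs had been injected with AAV-GFAP-iCre-P2a-TurboRFP. Both groups carried this virus, in which the GFAP promoter, active mainly in astrocytes, drives a Cre recombinase and the red fluorescent protein. The KO mice were Sox9fl/fl on a C57BL/6 background, so Cre removes the floxed part of Sox9, a transcription factor of astrocytes. The control mice had wild-type Sox9 alleles (genotype WT, strain C57BL/6, also written C57BL/6J and Sox9+/+) and thus express Cre without a floxed target. The sorting gate was set with a mouse that had received no virus, and sorted cells went straight into lysis buffer, so the study judged their purity from cell type markers in the RNA-seq data and not by sorting again. No library of uninjected Sox9fl/fl mice was analysed here.

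AMPA receptors are glutamate-gated cation channels built from 4 subunits, and they carry most of the fast excitatory current at central synapses. Kainate receptors are related channels that act on both sides of the synapse, where they tune transmitter release and excitability. In the olfactory bulb, the olfactory nerve and the mitral and tufted cells release glutamate, and granule and periglomerular interneurons respond to it. Astrocytes and oligodendrocyte precursor cells (OPCs) also carry AMPA receptors, so transcripts of these genes can come from several cell types of the bulb.

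One codon sets much of what an AMPA or kainate channel does. It lies in the pore loop and encodes glutamine in the genome, and in Gria2, Grik1 and Grik2 the RNA can be edited by adenosine deamination so that the codon is read as arginine. An edited Gria2 subunit makes an AMPA receptor nearly impermeable to calcium, which is why the balance between Gria2 and the other AMPA subunits matters. The coding sequence around this codon is shown for the 4 AMPA genes, for both edited kainate genes, and for Grik5, the kainate gene with the highest mean. Each line gives 33 coding bases from 5′ to 3′, read from the GENCODE M21 transcripts of GRCm38/mm10, with the codon in capitals.
Gria1: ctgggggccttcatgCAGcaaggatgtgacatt
Gria2: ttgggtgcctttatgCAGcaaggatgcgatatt
Gria3: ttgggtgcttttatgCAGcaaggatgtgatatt
Gria4: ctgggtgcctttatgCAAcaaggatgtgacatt
Grik1: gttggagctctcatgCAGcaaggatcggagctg
Grik2: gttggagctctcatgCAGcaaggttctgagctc
Grik5: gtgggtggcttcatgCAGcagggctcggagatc

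The codon was CAG in 8 of the 9 genes and CAA in 1, Gria4. It lies in a coding exon at chr11:57243094-57243096 on the plus strand for Gria1, and at chr3:80706911-80706913 on the minus strand for Gria2, where it is codon 607. For Gria3 the position is chrX:41610265-41610267 (plus strand) and for Gria4 chr9:4464137-4464139 (minus strand). For the kainate genes shown, all on the minus strand, it is chr16:87940542-87940544 for Grik1, chr10:49244329-49244331 for Grik2 and chr7:25022497-25022499 for Grik5. The printed stretches of Grik1 and Grik2 cross an exon junction, and the others lie within 1 exon. The deposited values are sums over a whole gene, so the edited share of this codon, and the flip and flop isoforms of the AMPA genes, are not measured by them.

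Expression is given in normalized counts, that is, reads on a gene after division by the size factor of the library. Reads on genes ranged from 18242129 to 86906527 per library, with Sox9 KO replicate 2 the deepest, and 1 read was worth between 0.395 and 1.58 normalized counts. Sox9 itself, the check of the labels, averaged 5556 normalized counts in control and 58.2 in KO (limma log2 fold change -6.54, standard error 0.15, adjusted p = 2.5e-09). In the control libraries all 12 astrocyte markers were present, and their summed level was 508544 to 570702 normalized counts. In the KO libraries that sum was 34970 to 45225, 13.7-fold lower. Sox9 is itself a gene of astrocytes, and the part of this difference in the fall of Sox9 was not tested. The summed level of 8 microglia markers was 134220 to 162027 in control and 467213 to 570711 in KO, 3.65-fold higher. The KO libraries, also labelled as astrocytes, thus held far less astrocyte marker RNA than the controls. In bulk libraries, fewer cells of a type and less RNA per cell cannot be told apart.

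All 9 subunit genes were lower in the KO libraries. The AMPA genes together summed to 31774 ± 4769 normalized counts in the control mice and to 2863 ± 158 in the KO mice (SD, n = 3 per group), 11.1-fold fewer. The kainate genes had 3436 ± 100 and 618 ± 182, 5.56-fold fewer. These sums take no account of transcript length and are led by abundant genes, such as Gria2 with a mean of 18630 in control. Per kilobase of the longest transcript, the AMPA sum averaged 4232 in control and 433 in KO. The kainate sum averaged 620 and 86.1. The median log2 fold change was -3.11 over the AMPA genes and -2.80 over the kainate genes. The difference between the families was not tested. Each of the 9 genes passed the test (limma on log2(normalized count + 1), adjusted p of 0.05 and at least 1.5-fold), and in each of them every KO library lay below every control library. These shares are to be read against the whole transcriptome, in which 28.8% of the 18413 genes tested were called lower, 22.2% were called higher, and 34.7% had every KO library below every control library. The median log2 fold change was -2.80 over the 9 genes and -0.07 over all genes tested. With the recovered read counts, edgeR and DESeq2 also called all 9 lower, where they called 31.0% and 28.0% of their genes lower.

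**Figure D1:**
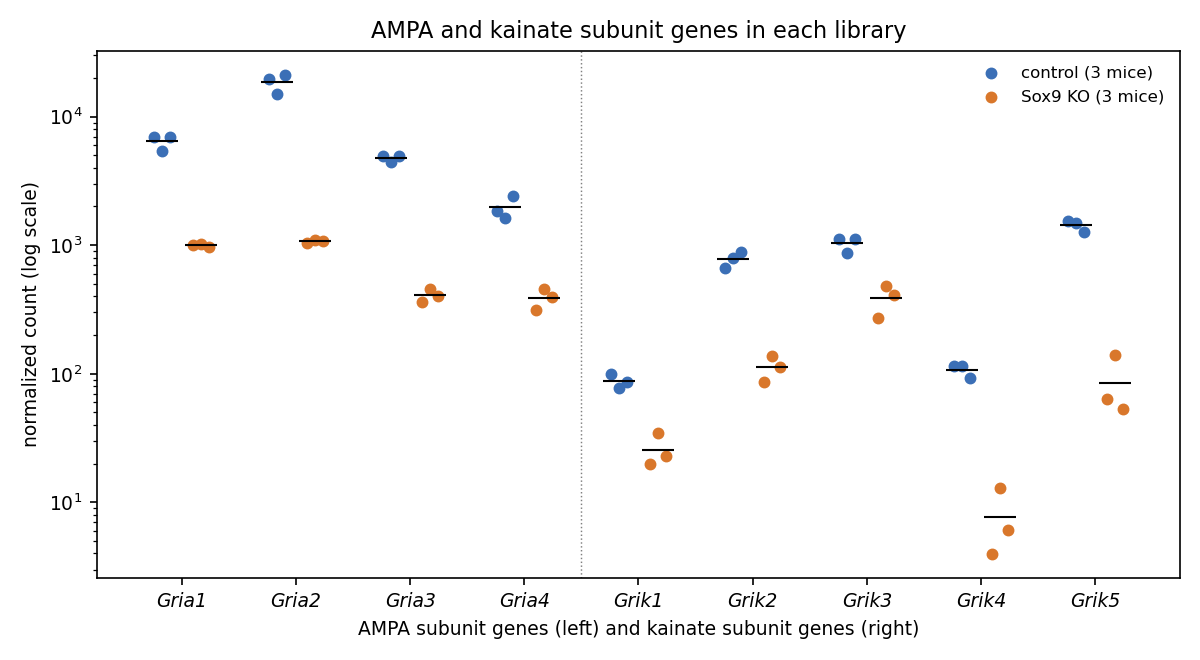
Normalized count (log scale) of each AMPA subunit gene (left of the dotted line) and kainate subunit gene (right) in each library; points are single mice and black bars are group means. In all 9 genes the 3 KO libraries lie below the 3 control libraries, with the widest gap for Gria2 and the narrowest for Grik3.

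Gria2 encodes the subunit that, once edited, limits calcium entry, and it was the member with the highest level in control. In control its normalized counts came to 19766, 14932 and 21192 (replicates 1, 2 and 3, the order used for every member), while KO libraries gave 1045, 1104 and 1073. The groups were far apart, since the lowest control library was still 13.5-fold above the highest KO library. The mean fell 17.3-fold, from 18630 ± 3281 to 1074 ± 29.2 (log2 fold change -4.10, standard error 0.13, limma adjusted p = 7.3e-09). The coefficient of variation among KO libraries was 2.72%, against 17.6% among controls.

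Gria1, whose subunit is delivered to synapses during potentiation in many neurons, was measured at 6902, 5425 and 6976 normalized counts in control and at 1001, 1017 and 966 in KO. The KO libraries were nearly equal, and all lay at least 5.33-fold below any control library. From 6434 ± 875 in control it fell to 995 ± 25.9 (log2 fold change -2.68, standard error 0.11, limma adjusted p = 2.9e-08). Its coefficient of variation was 2.61% among KO libraries and 13.6% among controls.

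Gria3 encodes the GluA3 subunit, which often pairs with GluA2. Its values were 4913, 4415 and 4904 in control and 361, 460 and 400 in KO. The controls were tightly grouped and the KO libraries did not approach them. The mean went from 4744 ± 285 to 407 ± 49.7 (log2 fold change -3.55, standard error 0.11, limma adjusted p = 8.5e-09), the most negative value among the AMPA genes after that of Gria2.

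Gria4 encodes the GluA4 subunit, known from fast AMPA receptors of interneurons and from glial cells. Control libraries had 1849, 1626 and 2423 normalized counts and KO libraries 313, 452 and 398. Control replicate 3 was the highest, and the lowest control library was 3.59-fold above the highest KO library. The mean fell from 1966 ± 411 to 388 ± 70.4 (log2 fold change -2.34, standard error 0.18, limma adjusted p = 1.3e-06), the least negative value among the AMPA genes.

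Among the kainate genes, Grik1, Grik2 and Grik3 encode subunits that can form channels on their own, and Grik4 and Grik5 encode high-affinity subunits that need one of the first set as a partner. Grik5 was the kainate gene with the highest level in control, at 1548, 1479 and 1259 normalized counts. In KO it had 63.5, 139 and 53.2. KO replicate 2 stood above the other KO libraries but was still 9.04-fold below the lowest control library. From 1429 ± 151 the mean fell to 85.4 ± 47.1, 16.7-fold (log2 fold change -4.17, standard error 0.30, limma adjusted p = 1.0e-06), about as much as that of Gria2.

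Grik4, the other high-affinity subunit gene, was measured at 115, 114 and 93.0 normalized counts in control mice and at 3.97, 13.0 and 6.08 in KO mice. The KO values rest on 4, 33 and 4 reads, so the size of the fall is known only roughly. The mean was 108 ± 12.6 in control and 7.69 ± 4.74 in KO (log2 fold change -3.77, standard error 0.45, limma adjusted p = 3.5e-05), and the log2 fold change was -3.00 with quantile normalization.

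Grik3 was the member that fell least. Its normalized counts were 1111, 866 and 1124 in control and 269, 482 and 410 in KO, so that the lowest control library was 1.80-fold above the highest KO library. The mean changed from 1033 ± 145 to 387 ± 108, 2.67-fold (log2 fold change -1.45, standard error 0.21, limma adjusted p = 0.00014). Among KO libraries replicate 1 was the lowest, and the coefficient of variation was 28.0%, against 14.1% among controls.

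Grik2, whose RNA can be edited at the codon shown above, reached 661, 796 and 878 normalized counts in control mice, against 86.4, 138 and 112 in KO mice. The groups did not overlap, and the mean fell from 778 ± 110 to 112 ± 25.9 (log2 fold change -2.80, standard error 0.20, limma adjusted p = 9.5e-07). Grik1, also an edited gene, was sparse, with 99.4, 77.8 and 86.7 in control and 19.9, 34.3 and 22.8 in KO, the latter from 20, 87 and 15 reads. Its mean fell from 87.9 ± 10.9 to 25.7 ± 7.66 (log2 fold change -1.77, standard error 0.33, limma adjusted p = 0.00092), and the log2 fold change was -0.90 with quantile normalization. KO replicate 2 was the highest KO library for all 9 genes, and how often this holds over all genes was not tested. The same library had the highest summed level of astrocyte, neuron, interneuron and neuroblast, mitral and tufted, OPC and microglia markers among the KO libraries. The oligodendrocyte, border macrophage, mural and olfactory ensheathing sums were highest in KO replicate 3, and the endothelial sum in KO replicate 1. The part of these differences in the members' values was not tested.

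Levels of different genes are compared here per kilobase of the longest GENCODE M21 transcript, since longer transcripts yield more fragments. In control the order of the levels was Gria2 (1796 ± 316 normalized counts per kilobase), Gria1 (1160 ± 158), Gria3 (914 ± 54.8), Grik5 (380 ± 40.0), Gria4 (361 ± 75.6), Grik3 (115 ± 16.2), Grik2 (82.6 ± 11.7), Grik1 (24.1 ± 2.97) and Grik4 (18.3 ± 2.14). Of these neighbours, Grik5 and Gria4 were the ones whose library ranges overlapped with this length. Per kilobase of coding sequence or of all exons, Gria4 stood above Grik5 and Grik4 above Grik1. With coding length Gria4 was at 726 ± 152 and Grik5 at 486 ± 51.2, without overlap. With all exons the ranges of Gria2 (1198 ± 211) and Gria1 (1065 ± 145) overlapped. Among tested genes with a known length, Gria2 stood at percentile 96.2 and Grik4 at percentile 24.9.

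In KO the order of the levels per kilobase was Gria1 (179 ± 4.67), Gria2 (104 ± 2.82), Gria3 (78.4 ± 9.57), Gria4 (71.3 ± 12.9), Grik3 (43.1 ± 12.1), Grik5 (22.7 ± 12.5), Grik2 (11.9 ± 2.75), Grik1 (7.02 ± 2.10) and Grik4 (1.31 ± 0.81). Gria3 and Gria4 overlapped, as did each neighbouring pair from Grik3 to Grik1. Gria2 moved to percentile 52.7, behind Gria1 at 62.0. Which of these genes leads in KO depends on the length used: per kilobase of coding sequence Gria2 was at 405 ± 11.0 and Gria1 at 366 ± 9.52, while per kilobase of all exons Gria1 was at 165 ± 4.29 and Gria2 at 69.1 ± 1.88.

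The make-up of each family was described as the share of every subunit gene in the family's summed level per kilobase. Within the AMPA genes, Gria2 made up 43.0%, 40.4% and 43.6% in control and 24.7%, 23.1% and 24.2% in KO. The mean share was 42.3% ± 1.70 in control and 24.0% ± 0.83 in KO. Gria1 held the first place in KO, with 27.4% ± 0.62 in control and 41.6% ± 2.34 in KO, though with coding length it stood at 34.3% behind Gria2 at 38.0%. Gria4 had 8.51% ± 0.92 and 16.4% ± 2.06, and Gria3 had 21.8% ± 1.89 and 18.1% ± 1.08. The ranges of the groups did not overlap for any of these 4 genes, and each had an exact two-sided permutation p of 0.1 (0.1125 after adjustment over the 9 shares), the smallest that this test can give with 3 against 3, so it cannot reach 0.05. For Gria3 the difference shrank from -3.69 to -0.83 percentage points when coding length was used.

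**Figure D2:**
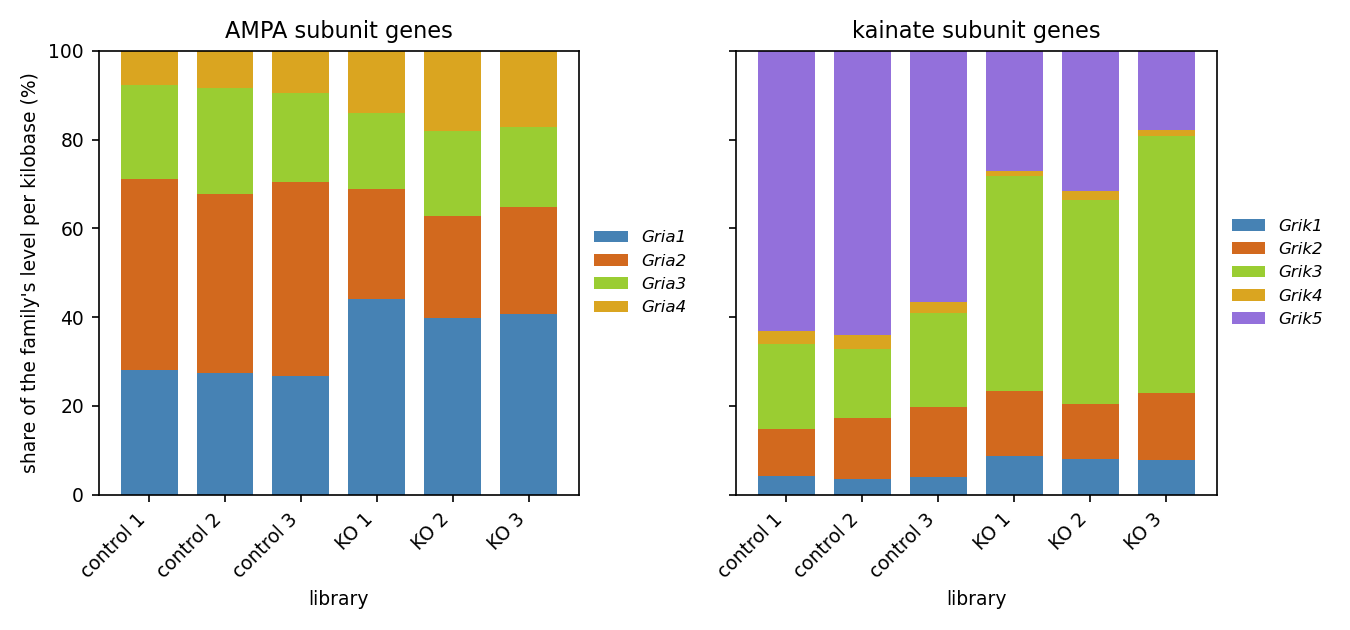
Share of each gene (%) in the summed level per kilobase of longest transcript of the AMPA (left) and kainate (right) subunit genes, 1 bar per library. Gria2 and Grik5 take the largest shares in the 3 control libraries, and Gria1 (with this length, not with coding length) and Grik3 in the 3 KO libraries.

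Within the kainate genes the shares of Grik5 and Grik3 differed most between the groups. Grik5 made up 63.1%, 63.9% and 56.5% in control and 27.2%, 31.6% and 17.9% in KO, a mean of 61.2% ± 4.08 against 25.6% ± 7.02. Grik3 made up 19.0%, 15.7% and 21.1% in control and 48.3%, 45.9% and 57.8% in KO, a mean of 18.6% ± 2.74 against 50.7% ± 6.32. Neither gene's groups overlapped. Grik1 had 3.88% ± 0.37 and 8.22% ± 0.46 without overlap, a difference of 4.34 percentage points, which became 2.54 with the length of all exons and 1.53 with coding length. Grik4 had 2.94% ± 0.25 and 1.43% ± 0.42, also without overlap. Each of these 4 genes had an exact permutation p of 0.1 (adjusted 0.1125). Shares within a family move against each other, so those of the AMPA or kainate genes are not separate results. How often the shares of other genes separate was not tested. The share of Grik2 was 13.4% ± 2.50 and 14.1% ± 1.39, the groups overlapped (exact permutation p = 0.7), and the sign of the difference of 0.72 percentage points turned with coding length (-4.78), with the length of all exons (-0.49) and without control replicate 1 (-0.61).

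The change of a ratio of 2 genes within a library needs no transcript length. Ratios were taken on the normalized count + 1, which bears on the sparse genes. The log2 ratio of Gria1 to Gria2 was -1.52, -1.46 and -1.60 in control and -0.06, -0.12 and -0.15 in KO. It was thus 1.42 higher in KO (standard error 0.05), with no overlap. The ratio to Gria2 was also higher for Gria4, by 1.76 (standard error 0.16), and for Gria3, by 0.55 (standard error 0.13). For the kainate genes the reference was Grik5, which had the highest mean over these same 6 libraries (757, against 710 for Grik3). It led Grik3 only through its control values, and a reference picked in this way favours a large fall. The log2 ratio to Grik5 was higher in KO by 2.73 (standard error 0.39) for Grik3 and by 2.41 (standard error 0.26) for Grik1. For Grik2 it was higher by 1.38 (standard error 0.37). For Grik4 it was 0.40 higher (standard error 0.22), with overlapping groups and an exact permutation p of 0.2, and this value moved to 0.24 at a pseudocount of 0.1, to 0.90 at a pseudocount of 5 and to 0.21 without KO replicate 3. The other 6 of the 7 pairs had groups that did not overlap, at the smallest exact permutation p of 0.1 (adjusted 0.117). In these libraries Gria2 and Grik5 had more negative log2 fold changes than the genes compared with them, though the groups overlapped for Grik4. Apart from Grik4, this came at the smallest p that this permutation test can give with 3 against 3 mice. Pairs of a family share a reference gene, so they are not separate results. Of the 18413 single genes tested, 6396 had every KO library below every control library, and 5972 had every KO library above. How often the ratios of other gene pairs separate was not tested.

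AMPA and kainate receptors work with partner proteins, and 40 genes of such partners were tested, of which 30 were called lower and 0 higher by limma, against 28.8% and 22.2% of all genes tested. At an unadjusted p under 0.05, with no fold threshold, 34 of them were lower and 2 higher, against 33.9% and 31.1% of all genes. edgeR called 1 of them higher and DESeq2 0. Their median log2 fold change was -2.07, against -2.80 for the subunits and -0.07 for all genes, and it did not move when C1ql2, listed at 0 in all KO libraries, was held at a floor of 3 reads over the group.

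The largest group of partners was that of the AMPA auxiliary subunits, which bind the channel and shape its trafficking and gating. All 15 genes tested had negative log2 fold changes, with a median of -2.73, and 14 were called lower. Shisa9, also known as CKAMP44, which slows recovery from desensitization, fell from 10007 ± 1290 to 1077 ± 56.7 normalized counts (log2 fold change -3.21, standard error 0.11, limma adjusted p = 9.2e-09). Cacng5, a transmembrane AMPA receptor regulatory protein, fell from 4148 ± 141 to 460 ± 72.3 (log2 fold change -3.18, limma adjusted p = 1.8e-08), and Shisa7 from 489 ± 85.8 to 88.3 ± 45.1. Syndig1, the gene that was not called, was near the detection limit at 7.43 ± 3.36 and 2.34 ± 2.08 normalized counts. The auxiliary subunits of kainate receptors, Neto1 and Neto2, were both called. Neto1 fell from 563 ± 48.7 to 54.0 ± 17.7 and Neto2 from 1294 ± 144 to 334 ± 65.9 normalized counts.

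Of 5 genes of receptor assembly, 3 were called lower, among them Frrs1l, a chaperone of AMPA receptor biogenesis in the endoplasmic reticulum, from 1184 ± 41.0 to 262 ± 66.8 normalized counts. Abhd6, a lipid hydrolase, had 1445 ± 117 and 1187 ± 90.0 and was not called. Sacm1l, a phosphoinositide phosphatase, had 1746 ± 141 in control and 2613 ± 213 in KO (log2 fold change 0.58, limma adjusted p = 0.00060), just under 1.5-fold, and passed 1.5-fold in edgeR (0.60) and without control replicate 2 (0.64) or KO replicate 2 (0.65).

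Of 10 scaffold and trafficking genes, 7 were called lower. Dlg2, which encodes PSD-93, fell from 2115 ± 231 to 436 ± 214 normalized counts (log2 fold change -2.37, limma adjusted p = 2.2e-05). Nsf, the ATPase of membrane fusion, had 2675 ± 46.5 and 2130 ± 58.7, and Dlg1, which encodes SAP97, had 2350 ± 5.86 and 1850 ± 20.3. Both had log2 fold changes (-0.33 and -0.35) short of 1.5-fold. Of 5 secreted or cell-surface clustering genes, 2 were called lower. Nptx1, a neuronal pentraxin that gathers AMPA receptors, fell from 702 ± 103 to 80.9 ± 24.7.

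The enzymes of RNA editing bear on the codon shown above. Adarb1 encodes ADAR2, the deaminase that edits it in Gria2, and fell from 787 ± 78.2 to 253 ± 28.8 normalized counts (log2 fold change -1.63, standard error 0.14, limma adjusted p = 4.1e-06). Adarb2, a brain-specific relative without known activity, fell from 334 ± 33.3 to 52.0 ± 10.5 (log2 fold change -2.67, limma adjusted p = 3.2e-06). Adar, which encodes the ubiquitous ADAR1, had 1653 ± 310 and 2137 ± 184 (log2 fold change 0.38, limma adjusted p = 0.035) and was not called at 1.5-fold.

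**Figure D3:**
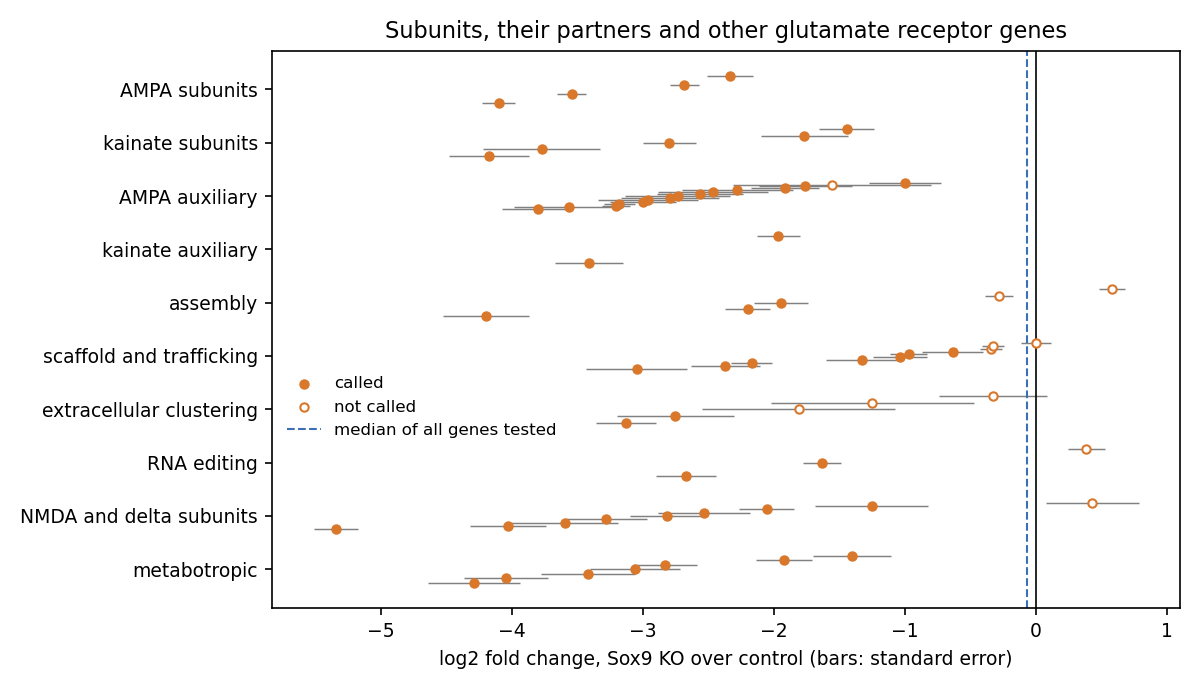
Log2 fold change (Sox9 KO over control) of each tested subunit, partner and other glutamate receptor gene; bars are standard errors, filled points were called at an adjusted p of 0.05 and 1.5-fold, and the dashed line is the median of all genes tested (-0.07). All filled points lie below 0, and the median was -2.80 for the subunits, -2.07 for all partners and -2.95 for the NMDA, delta and metabotropic genes together.

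Most genes of the other glutamate receptor families were lower as well. Of 9 NMDA and delta subunit genes, 8 were called lower (median log2 fold change -2.82), and all 7 metabotropic glutamate receptor genes tested were called lower, with a median of -3.06, against 28.8% of all genes. The NMDA subunit gene that was not called, Grin3b, averaged 22.8 ± 0.86 normalized counts across control mice and 31.1 ± 2.36 across KO mice (log2 fold change 0.43, limma adjusted p = 0.31), with every KO library above every control library. These medians lie close to the -2.80 of the AMPA and kainate genes. Grin2c, an NMDA subunit gene known from astrocytes, fell from 2187 ± 373 to 52.6 ± 6.08 normalized counts (log2 fold change -5.34, limma adjusted p = 8.5e-09), a more negative value than that of any of the 9 members, though the difference was not tested. Grin3a went from 4571 ± 817 to 1126 ± 371 and Grin2b from 940 ± 218 to 87.4 ± 55.3. Grm3, a metabotropic receptor gene of astrocytes and neurons, fell from 2141 ± 168 to 144 ± 85.6, and Grm5 from 926 ± 230 to 130 ± 38.0.

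Since several cell types of the bulb carry AMPA and kainate receptors, their marker levels are set beside the subunits. Of all genes tested, 28.8% were called lower and 22.2% higher, and the calls below are to be read against these shares. The summed level of 12 neuron markers was 18500 to 25453 normalized counts in control and 3464 to 5833 in KO, 4.97-fold lower, with 11 of the 12 genes called lower. Interneuron and neuroblast markers, 12 of 12 called lower, summed to between 14724 and 18609 in control and between 1744 and 2656 in KO, 7.83-fold lower. OPC markers, 8 of 8 called lower, summed to between 10085 and 10442 in control and between 932 and 1470 in KO, 8.22-fold lower. A sum is led by its most abundant genes, such as Slc1a2 for astrocytes and Snap25 for neurons, and the median log2 fold change over the genes of a list was -4.12 for astrocytes, -2.04 for neurons, -3.50 for interneurons and neuroblasts, -3.07 for OPCs and 1.96 for microglia. Mitral and tufted markers were 2.86-fold, oligodendrocyte markers 2.74-fold, mural markers 2.94-fold, olfactory ensheathing markers 2.82-fold and endothelial markers 1.32-fold lower in sum, and border macrophage markers were 1.40-fold higher. The first 5 of these lists had median log2 fold changes of -1.47, -1.46, -1.52, -1.22 and -0.72. Fabp7 led the olfactory ensheathing sum. Of 6 endothelial genes, 3 were called lower and 1, Flt1, higher. Of 6 mural genes, 4 were called lower and 2 had positive log2 fold changes. The border macrophage sum was led by Mrc1, and 3 of the 5 genes of that list were called lower, with a median log2 fold change of -0.67. No marker gene of these lists was at 0 in all libraries. The 9 subunit genes fell by between 2.67-fold and 17.3-fold. This wide range holds the fold difference of every marker sum that was lower in KO, apart from the endothelial one. It reaches the mitral and tufted, oligodendrocyte, mural and olfactory ensheathing sums only through Grik3, since the next lowest member, Grik1, fell 3.43-fold. The part of the cell mixture in these falls was not tested.

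The members were also compared relative to these sums, in which each library's values were divided by its own marker sum. This moved the median log2 fold change of all genes tested to 2.14 for the neuron sum, 3.50 for the astrocyte sum, 2.74 for the interneuron and neuroblast sum and 2.80 for the OPC sum, so that most genes turned up. Relative to the neuron markers, 4 members were called lower (5.87% of all genes were) and 1 higher (68.4% of all genes). Gria2 was lower by a log2 fold change of -1.76 (standard error 0.34, limma adjusted p = 3.0e-07), Grik5 by -1.85 (0.36, adjusted p = 4.5e-07), Grik4 by -1.59 (0.53, adjusted p = 0.0044) and Gria3 by -1.21 (0.33, adjusted p = 0.00042). Grik3 was higher by 0.89 (standard error 0.34, limma adjusted p = 0.013). The remaining 4 members, Gria1 (-0.34), Gria4 (0.00), Grik1 (0.52) and Grik2 (-0.47), were not called.

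Relative to the astrocyte markers, 0 members were called lower by limma (1.21% of all genes were; none of the 9 was so at an unadjusted p under 0.05) and 5 higher (79.7% of all genes). Gria2 (-0.32, standard error 0.18), Grik5 (-0.41, 0.25), Grik4 (-0.19, 0.47) and Gria3 (0.23, 0.16) were not called. With 3 against 3 mice, the lack of a call does not show that these falls equalled that of the astrocyte sum. The 5 that were higher were Grik3 (2.33), Grik1 (1.95), Gria4 (1.44), Gria1 (1.10) and Grik2 (0.97). Relative to the interneuron and neuroblast markers, Gria2 (-1.11) and Grik5 (-1.20) were called lower (3.38% of all genes) and Grik3 (1.54), Grik1 (1.16) and Gria4 (0.65) higher (74.2%). Relative to the OPC markers the same 2 genes were lower (-1.03 and -1.12, with 3.14% of all genes). The same 3 were higher (1.62, 1.24 and 0.73, with 74.7% of all genes). The other 4 members were called relative to neither sum. Their values for the interneuron and neuroblast sum and the OPC sum were 0.30 and 0.38 (Gria1), -0.56 and -0.48 (Gria3), 0.18 and 0.26 (Grik2) and -0.97 and -0.89 (Grik4). Under each scaling all 9 members lay below the median of all genes. Their order did not change, since a scaling moves all members of a library together.

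**Figure D4:**
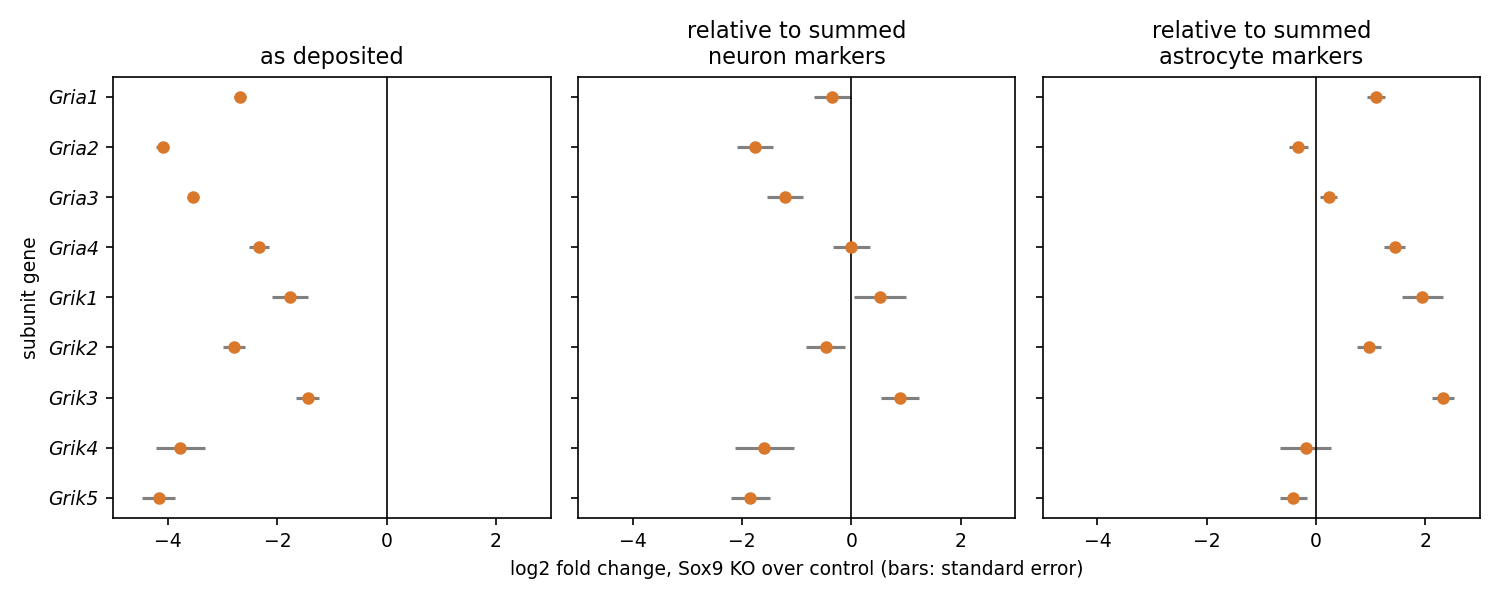
Log2 fold change (Sox9 KO over control, bars are standard errors) of each member as deposited, relative to the summed neuron markers and relative to the summed astrocyte markers of each library. As deposited all 9 lie below 0. Relative to neuron markers 4 were called lower and 1 higher (5.87% and 68.4% of all genes were). Relative to astrocyte markers 0 were called lower and 5 higher (1.21% and 79.7% of all genes were).

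Genes whose pattern over the 6 libraries was most like that of Gria2, among 11803 tested genes with a mean of at least 100 outside all lists, were Tnik, Chn1 and Dtna, each with a Pearson r that rounds to 1.00. Those most like Grik5 were Dbn1, Sgtb and Loxl1. With 2 groups this far apart such values are common, and 2416 genes had an r above 0.95 with Gria2 and 2227 with Grik5. Tnik, a kinase gene, fell from 4415 to 412 normalized counts on average, and Dbn1, which encodes the actin-binding protein drebrin, from 290 to 29.7.

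The members lie on 8 chromosomes, Gria4 and Grik4 both on chromosome 9, and no exon of another gene on the opposite strand overlapped theirs in GENCODE M21. Of the stretches of 30 bases in their transcripts, between 0.125% and 0.860% also occurred in another member, and sharing with other genes was not tested. A small gene on the same strand lies within an exon of Gria2, Gria3, Gria4 and Grik4, and the sources used here do not say how reads there were counted.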

How the data were processed

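RNA-seq libraries of sorted olfactory bulb cells (1 per mouse, 3 control and 3 Sox9 KO, grouped by the sample titles) were built by the study from 10 ng of total RNA. The authors mapped reads to mm10 with STAR 2.5.0a, counted them per gene, and normalized the counts with DESeq2 1.20.0; the gene annotation and strand setting were not given in the sources used here. Although the deposited signal values carry the name RPM, 100% of them in each library were whole multiples of 1 step within 0.01 read, which makes them reads over a size factor, here called normalized counts. The step gives the depth of each library and the precision of low values. Some gene symbols (27) were dates and were left as they are.

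Genes with a mean of at least 1 (18413 tested, 6008 left out) were compared on log2(normalized count + 1) by limma 3.58.1 (R 4.3.3), using a variance trend, two-sided moderated p-values and Benjamini-Hochberg adjustment over all genes tested; a call needed an adjusted p under 0.05 together with 1.5-fold, the study's fold threshold. Fold changes are on that log scale and understate those of low genes. P-values cover the spread between these mice. Exact two-sided permutation tests served shares and ratios. Recovered reads were tested with edgeR 4.0.16 (quasi-likelihood) and DESeq2 1.42.0. Only limma, edgeR and DESeq2 were checked on simulated data, in which far fewer genes changed than were called here. Named partner, other receptor and marker genes are at most the 3 with the highest mean per list, plus Syndig1, C1ql2 and Grin3b, chosen after their values were seen. Epb41l1 of the scaffold list is not analysed here. The values of 1 gene that this rule would name are not reported here. The members and lists were chosen with earlier results of these data known. Lengths are of GENCODE M21 transcripts; alternatives in pseudocount, filter, scaling, tool, length, block and libraries were tried.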

Additional observations from a re-analysis of the deposited data

How the results depend on the processing

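All 9 subunit genes stayed lower and called under the 17 alternatives in pseudocount, filter, total, quantile and Rn45s scaling, variance trend, replicate block, tool and left-out library, as well as at 2-fold and at an unadjusted p of 0.05; their log2 fold changes then lay between -4.59 and -0.90, the latter for Grik1 with quantile normalization. Libraries with the same replicate number showed no shared deviation (correlations of -0.05, -0.01 and -0.01), which cannot show whether those mice were handled together. The replicate block left 9 members, 30 partner genes and 15 NMDA, delta and metabotropic genes called lower. Without 1 library at a time the partner genes called higher ranged from 0 to 1, with edgeR 1 was called higher (Sacm1l in each case), and with quantile normalization 1 gene of the other receptor families was (Grin3b).

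Dividing by a marker sum, which lifts the median of all genes by over 2 on the log2 scale, changed the calls by its construction. Relative to the neuron, astrocyte, interneuron and neuroblast, and OPC sums, 5.87%, 1.21%, 3.38% and 3.14% of all genes were called lower. In the same order, 68.4%, 79.7%, 74.2% and 74.7% of all genes were called higher, and the counts below are to be read against these shares. Of the 9 members, those called lower numbered 4, 0, 2 and 2, and those called higher 1, 5, 3 and 3. In the same order, partner genes called lower numbered 7, 0, 2 and 2, and higher 12, 28, 20 and 20. Other glutamate receptor genes called lower numbered 7, 1, 4 and 4, and higher 1, 8, 5 and 5. For single members the log2 fold change turned positive relative to the neuron sum for Gria4 (0.0024), Grik1 (0.52) and Grik3 (0.89), and relative to the astrocyte sum for Gria1 (1.10), Gria3 (0.23), Gria4 (1.44), Grik1 (1.95), Grik2 (0.97) and Grik3 (2.33). Relative to the interneuron and neuroblast sum it was 0.30 for Gria1, 0.65 for Gria4, 1.16 for Grik1, 0.18 for Grik2 and 1.54 for Grik3, and relative to the OPC sum 0.38, 0.73, 1.24, 0.26 and 1.62. These scalings by the interneuron and OPC sums, and the counts under all of them, were chosen after seeing the data. The difference in the share of Grik2 turned from 0.72 to -0.49 percentage points with the length of all exons and to -4.78 with coding length, and ranged from -0.61 to 1.87 without 1 library at a time; the cause was not tested. Few reads limit the values of Grik4 and Grik1 in KO.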
